A study of Mus musculus with 8 samples.

Results

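Class 3 semaphorins are secreted guidance proteins. Most of them act through a receptor complex in which a neuropilin binds the ligand and a class A plexin carries the signal into the cell. Sema3e is the known exception, since it can bind Plxnd1 directly. In the developing heart and its vessels this family is known for steering endothelial cells, cardiac neural crest cells and autonomic axons.

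The genes described here are 6 class 3 semaphorins (Sema3a, Sema3c, Sema3d, Sema3e, Sema3f and Sema3g) and 4 plexins (Plxna1, Plxna2, Plxna4 and Plxnd1). These 10 genes were taken by symbol from the 53465 Ensembl genes of an RNA-seq count table. All 10 had enough reads to be tested, as part of 15388 tested genes. They were compared between heart ventricles of mouse embryos at embryonic day 15.5 that were WT or carried the genotype Nrg-1flox;Cdh5-CreERT2, with 4 libraries in each group. In that line a tamoxifen-inducible Cre driven by the endothelial Cdh5 promoter is meant to remove floxed Nrg1, a growth factor gene, from endothelial cells only, so that other cell types keep it. The labels give 1 ventricle per library, and the dose and time of tamoxifen, and whether WT embryos received it, are not given in the sources used here. Nothing states that libraries of a group came from separate litters, so p-values measure the spread between these libraries.

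The libraries held 16761763 to 24144272 expected counts. Nrg1 itself had a mean of 4.87 ± 0.636 CPM (counts scaled to a common library total) in WT libraries, against 6.17 ± 0.611 CPM in the other group (SD, n = 4). Its log2 fold change, written log2FC and taken as the other group over WT, was 0.34 (FDR 0.311, SE 0.12). Counts over the whole gene also take in exons that are not floxed and cells without Cre. Since Nrg1 was not lower where it should be deleted, the group is called the Flox-labelled libraries from here on. Xist and Y-linked transcripts occurred together in 7 of the 8 libraries, although the labels give 1 ventricle for each. Y-linked transcripts summed to 69.3 to 171 CPM in WT libraries and to 68.3, 42.9, 58.5 and 120 CPM in Flox-labelled libraries 1 to 4, so that libraries 1 to 3 lay below all WT libraries. Xist was at 0.176 to 206 CPM in WT libraries and at 327, 282, 263 and 103 CPM in Flox-labelled libraries 1 to 4, so that libraries 1 to 3 lay above all WT libraries. The ventricular markers Myl2, Irx4, Hey2 and Mycn were detected in all libraries, with a summed level of 4918 to 5588 CPM. All 4 were higher in the Flox-labelled libraries (median log2FC 0.07), with none called. The groups of Hey2 and Mycn did not overlap, as in 6.05% of all tested genes. The summed level was mostly Myl2 (WT mean 4988 of 5261 CPM).

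Sema3a, a repellent of sympathetic axons, was lower in the Flox-labelled libraries, and no other gene of the set passed the test. Of the 10 genes, 1 was called at a false discovery rate (FDR) below 0.05, beside 0.526% of all tested genes called in either direction, 0.214% called lower and 0.312% called higher. The unadjusted p was below 0.05 for 3 of the 10 (Sema3a, Sema3g and Plxnd1), beside 10.5% of all tested genes. The median log2FC of the 10 was -0.07, with 6 of them below 0, beside a median of -0.0012 and 50.6% below 0 over all tested genes. In the plot of levels by library, the groups of Sema3a stand apart and those of the other 9 genes overlap.

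**Figure D1:**
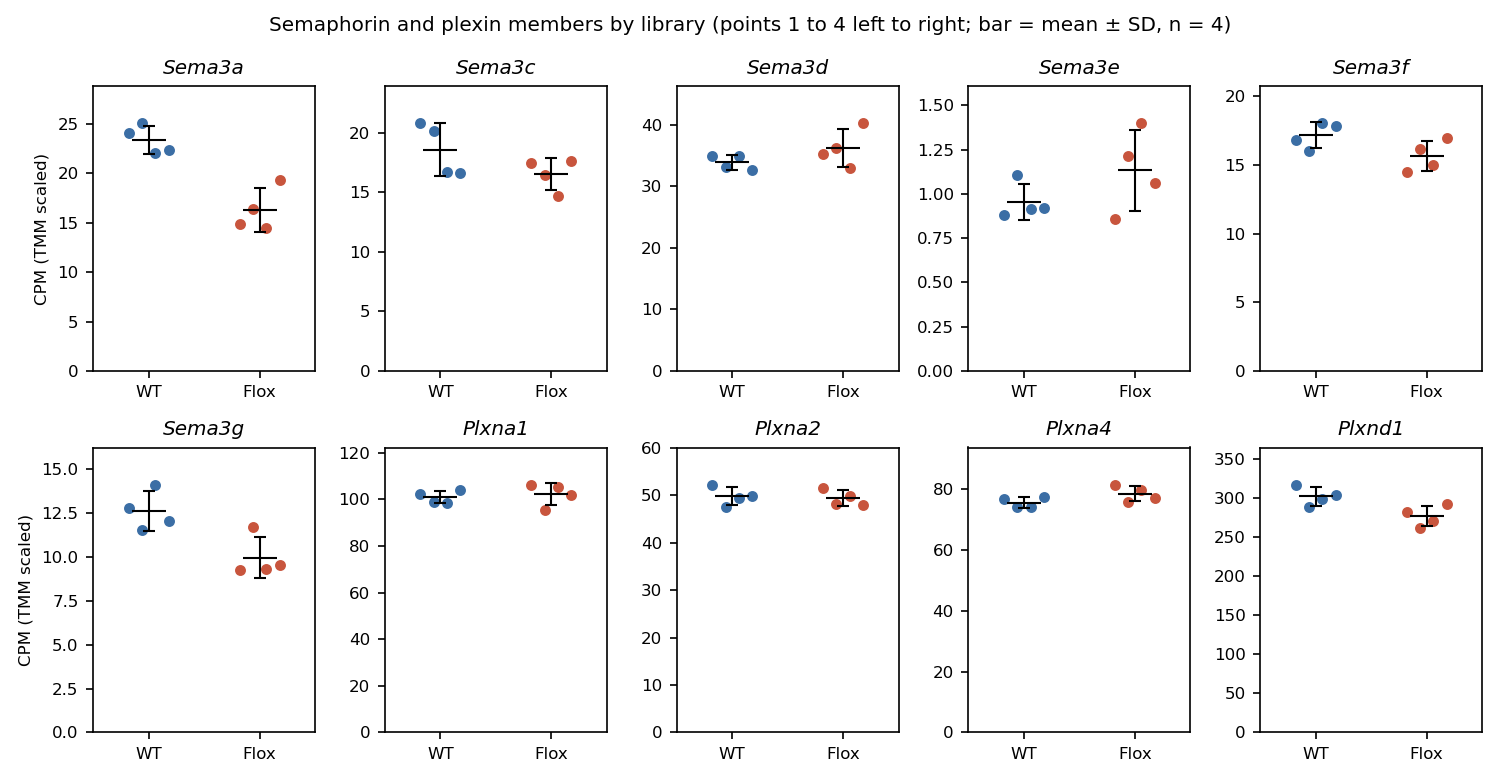
Level of each of the 10 genes in CPM (vertical axes, each from 0) in the 4 WT and the 4 Flox-labelled libraries, drawn as points in the order of library number, with the mean and SD as a bar. Sema3a runs from 22.1 to 25.1 CPM in WT and from 14.5 to 19.4 CPM in Flox-labelled libraries, the only gene here whose groups do not overlap.

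Sema3a (ENSMUSG00000028883) lies on chromosome 5 of GRCm38, from 13125414 to 13602565 on the plus strand. WT libraries 1 to 4 held 24.1, 25.1, 22.1 and 22.4 CPM. In Flox-labelled libraries 1 to 4 it was at 14.9, 16.4, 14.5 and 19.4 CPM. All 4 Flox-labelled libraries were thus below all WT libraries, and Flox-labelled library 4 came closest to them. Groups failed to overlap in 6.05% of all tested genes, in 2.98% with the Flox-labelled group lower and in 3.07% with it higher. The mean fell from 23.4 ± 1.42 to 16.3 ± 2.22 CPM (SD, n = 4), a change of -30.5%. This is a log2FC of -0.53 with a 95% confidence interval of -0.71 to -0.35 (SE 0.0836, FDR 0.0194) in edgeR's quasi-likelihood test. By its p, Sema3a ranked 22nd of the 15388 tested genes. Between 294 and 568 reads stood behind each value.

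The log2FC of Sema3a stayed between -0.62 and -0.48 under 19 alternatives, of which 13 kept the call. Without WT library 1 or 2, or without Flox-labelled library 1, 2 or 3, FDR was 0.0519 to 0.0804, and the log2FC lay between -0.54 and -0.48. Without Flox-labelled library 4 it was -0.62 (FDR 0.00201). With the level of Y-linked transcripts as a covariate the log2FC was -0.50 and did not pass (FDR 0.131), and Y-linked levels differed between the groups as given above.

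**Figure D2:**
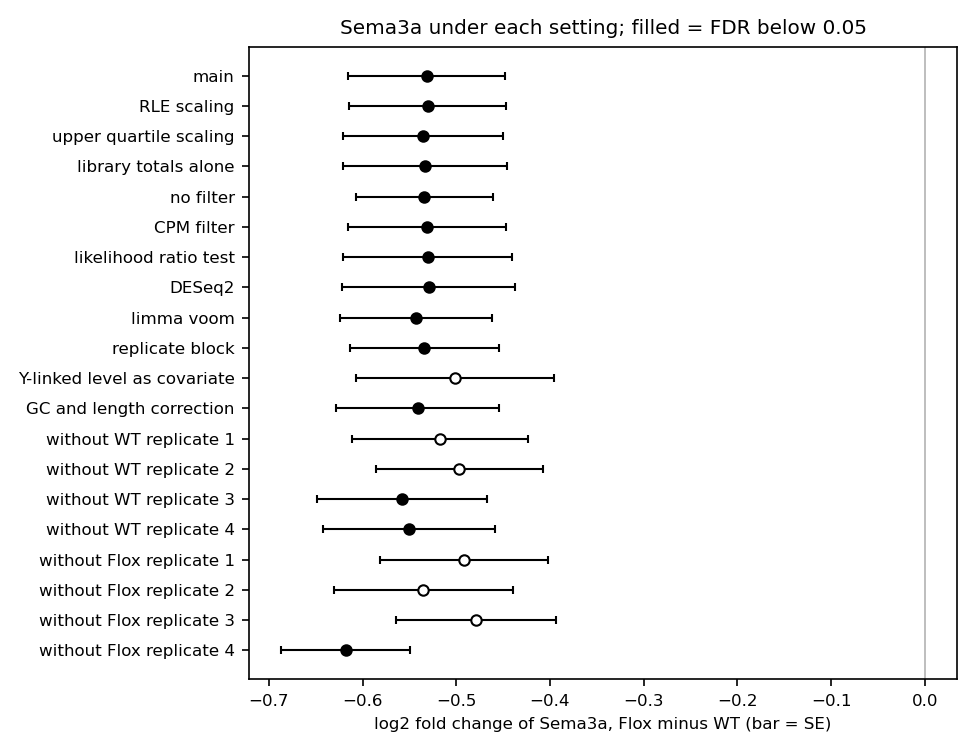
Log2 fold change of Sema3a (horizontal axis, Flox-labelled minus WT, bar = SE) under the reported fit, named main, and 19 alternatives (vertical axis). All values lie between -0.62 and -0.48, and 6 open points mark settings in which FDR was not below 0.05.

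In these bulk samples, fewer cells of a type and less RNA per cell cannot be told apart. Marker lists of other compartments were read beside Sema3a. Of 9 trabecular and conduction markers, 8 were lower, with a median log2FC of -0.19, and Etv1 was the 1 called. In the same quasi-likelihood test the unadjusted p was below 0.05 for 7 of the 9, beside 10.5% of all tested genes. These included Slit2 (log2FC -0.57, FDR 0.072) and Bmp10 (-0.55, FDR 0.0606), with falls of the size of Sema3a but no call. Irx1, also among the 7, was the 1 marker that was higher (0.15). The list's summed level was 2038 to 2959 CPM in WT and 1861 to 2672 CPM in Flox-labelled libraries, so the ranges overlapped. This sum mostly reflects Nppa, whose WT mean was 1992 CPM of 2491 CPM for the list. Library 4 had the highest sum in both groups, while its Sema3a was the highest of the Flox-labelled group and the second lowest of WT. All 8 atrial markers were lower (median -0.18), with Kcnj3 called, and their sums were 1636 to 1861 and 1626 to 1783 CPM. Their part in the Sema3a result was not tested. The 8 cardiomyocyte markers had a median of 0.0097, with 4 higher and 4 lower and none called. Of 10 neuronal and Schwann cell markers, 4 had enough reads to be tested and none was called, and the summed level of all 10 was 8.65 to 9.71 CPM in WT and 8.81 to 9.83 CPM in Flox-labelled libraries. No listed marker was at 0 in all libraries.

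**Figure D3:**
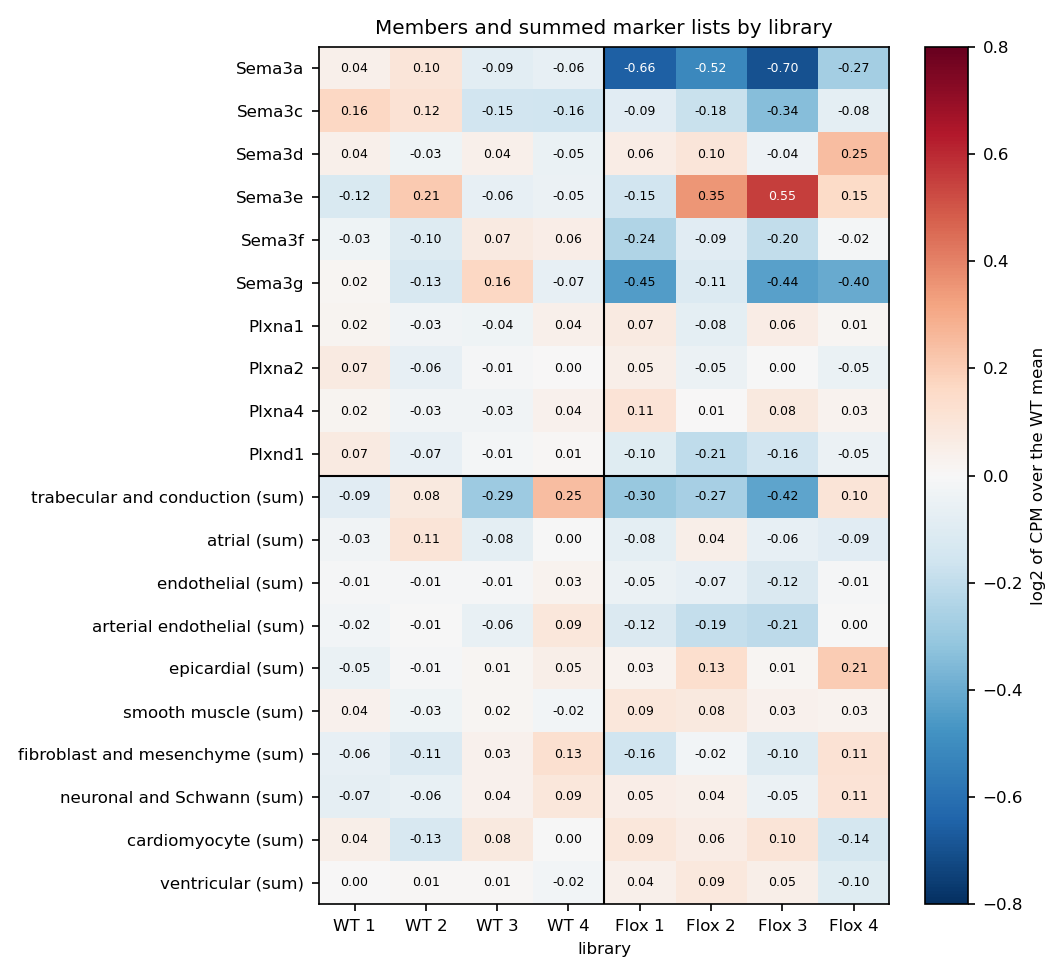
Colour and printed value give log2 of CPM over the WT mean in each of the 8 libraries (columns) for the 10 genes and for summed marker lists (rows). Each sum weighs its most abundant genes most, so the trabecular and conduction row mostly follows Nppa (WT mean 1992 of 2491 CPM). The smooth muscle row is above 0 in all Flox-labelled libraries, though 6 of its 8 genes were lower. Sema3a is at -0.66, -0.52, -0.70 and -0.27 in Flox-labelled libraries 1 to 4, while the trabecular and conduction sum is at -0.30, -0.27, -0.42 and 0.10.

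Among the genes most like Sema3a across the 8 libraries were Clu, which encodes a secreted chaperone (Pearson's r of log2 CPM 0.994), and Itga6, a laminin receptor subunit (0.977). The group difference is part of these correlations, and the points share their libraries. The log2FC was -0.35 for Clu (FDR 0.0133) and -0.21 for Itga6 (FDR 0.0283).

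Sema3a, Sema3c, Sema3d and Sema3e share a stretch of 5.35 megabases on chromosome 5 (12383385 to 17730268). It held 10 tested genes, of which Sema3a alone was called, 5 were lower, and the median log2FC was 0.0019. The stretch was chosen after the values were seen. RefSeq start regions on GRCm38.p6 (250 bases before to 50 after the annotated start) were at hand for 7 of the 10 genes. They are shown for Sema3a, for Sema3c, whose window held the most CG dinucleotides of the 7, and for Sema3g, the other semaphorin with the lowest p, to show the range of base composition. Capitals mark CG dinucleotides, the same on both strands.
Sema3a, chr5:13396534-13396833, plus strand: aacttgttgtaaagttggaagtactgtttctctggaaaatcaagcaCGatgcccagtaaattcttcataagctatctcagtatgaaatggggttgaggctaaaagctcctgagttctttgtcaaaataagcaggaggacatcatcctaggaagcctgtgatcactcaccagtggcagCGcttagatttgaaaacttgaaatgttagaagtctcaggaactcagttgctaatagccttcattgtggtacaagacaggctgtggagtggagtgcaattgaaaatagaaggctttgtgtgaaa
Sema3c, chr5:17574566-17574865, plus strand: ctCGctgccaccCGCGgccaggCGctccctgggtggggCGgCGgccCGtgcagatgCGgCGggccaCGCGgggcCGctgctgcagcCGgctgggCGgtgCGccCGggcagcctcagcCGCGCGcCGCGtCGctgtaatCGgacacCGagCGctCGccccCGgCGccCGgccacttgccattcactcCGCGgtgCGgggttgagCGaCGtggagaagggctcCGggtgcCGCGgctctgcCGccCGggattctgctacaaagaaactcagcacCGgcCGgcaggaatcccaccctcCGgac
Sema3g, chr14:31217623-31217922, plus strand: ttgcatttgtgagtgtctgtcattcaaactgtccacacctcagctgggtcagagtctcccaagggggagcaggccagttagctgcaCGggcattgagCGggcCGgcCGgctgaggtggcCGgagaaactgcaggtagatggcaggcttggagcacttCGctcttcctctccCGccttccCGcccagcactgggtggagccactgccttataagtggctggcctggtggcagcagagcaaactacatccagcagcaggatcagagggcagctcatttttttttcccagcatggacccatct
The Sema3a window held 2 CG dinucleotides, and 23.3% of the 32851 windows of this length held that many or fewer. The Sema3c window held 42, a number not exceeded in 97.4% of windows, and the Sema3g window held 8 (54.2%). Of the semaphorins nearest to Sema3a, the window of Sema3d held 8 (54.2%) and that of Sema3e 11 (60.4%). Those of Plxna2 and Plxnd1 held 25 (83.1%) and 23 (80.0%). No window of the 7 genes held TATAAA on either strand, a motif present in 13.6% of all windows. GENCODE M21 places further Sema3a starts upstream and downstream of this window, and gene-level counts do not say which start was used.

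Among the other ligands, Sema3g, which is known from arterial endothelium, had the largest difference after Sema3a. Its values were 12.8, 11.5, 14.1 and 12.04 CPM in WT libraries 1 to 4. Those of the Flox-labelled libraries were 9.25, 11.7, 9.33 and 9.53 CPM. Flox-labelled library 2 lay above WT library 2, and the other 3 lay below all WT libraries. The log2FC of -0.34, with a 95% confidence interval of -0.54 to -0.13 (SE 0.0957), did not pass (FDR 0.176). Of 8 arterial endothelial markers, 7 were lower (median -0.14) and Cxcr4 was called. The unadjusted p was below 0.05 for 4 of them, beside 10.5% of all tested genes. These included Gja5 (log2FC -0.19), which was also on the trabecular and conduction list. Groups did not overlap for 2 of the 8 arterial markers, beside 6.05% of all tested genes. Their sums were 448 to 497 CPM in WT and 405 to 466 CPM in Flox-labelled libraries, and their part in the Sema3g values was not tested.

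Sema3c, which is needed for septation of the outflow tract, held 20.8, 20.1, 16.7 and 16.6 CPM across WT libraries 1 to 4, against 17.4, 16.4, 14.7 and 17.6 CPM in Flox-labelled libraries. The WT libraries split into a higher and a lower pair, and the lower pair lay within the Flox-labelled range (log2FC -0.17, 95% confidence interval -0.36 to 0.02, FDR 0.545). Sema3f, a ligand that prefers Nrp2, was at 17.2 ± 0.955 and 15.6 ± 1.11 CPM (SD, n = 4), with a log2FC of -0.14 (95% confidence interval -0.28 to 0.01, FDR 0.532).

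Sema3d, which acts in venous patterning and is made by epicardial cells, was the most abundant of the 6 ligands per length. WT libraries held 34.9, 33.1, 34.8 and 32.6 CPM, against 35.3, 36.3, 32.9 and 40.3 CPM in Flox-labelled libraries. The log2FC was 0.09 (95% confidence interval -0.03 to 0.21, FDR 0.615), and library 4 held the highest Flox-labelled value. The 8 epicardial markers were all higher, with a median of 0.09 and none called. Their sums were 190 to 204 CPM in WT and 199 to 227 CPM in Flox-labelled libraries. Library 4 had the highest sum in both groups, while its Sema3d was the highest of the Flox-labelled group and the lowest of WT. Their part in the Sema3d values was not tested. Sema3e had 17 to 30 reads per library and levels of 0.859 to 1.40 CPM over all 8 libraries. Its log2FC of 0.25 had the widest interval of the 10 genes, from -0.24 to 0.75 (FDR 0.773), which does not exclude a rise of the size by which Sema3a fell.

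The 4 plexins had log2FC values between -0.13 and 0.06, and none was called. Plxnd1, an endothelial receptor that restrains vessel growth, held 317, 288, 299 and 303 CPM across WT libraries, against 282, 261, 271 and 291 CPM in Flox-labelled libraries. Its highest Flox-labelled value exceeded the lowest WT value. The log2FC of -0.13, with a 95% confidence interval of -0.21 to -0.04 (SE 0.0406), did not pass (FDR 0.259). Of 12 endothelial markers, 10 were lower and 2 higher (median -0.09), with none called. The unadjusted p was below 0.05 for 7 of them, among them Emcn, which was higher (0.18), beside 10.5% of all tested genes. Groups did not overlap for 5, beside 6.05% of all tested genes. Esam (-0.15, FDR 0.0584), Kdr (-0.17, FDR 0.0693) and Erg (-0.19, FDR 0.0769) had larger falls and smaller p than Plxnd1. So did Tie1 (-0.17, FDR 0.121) and Cldn5 (-0.17, FDR 0.225). The sums of the 12 markers were 1501 to 1542 CPM in WT and 1396 to 1501 CPM in Flox-labelled libraries. Their part in the Plxnd1 values was not tested.

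Plxna4, a receptor of Sema3a in sympathetic neurons, had means of 75.5 ± 1.77 CPM in WT libraries and 78.5 ± 2.55 CPM in Flox-labelled libraries (SD, n = 4), and all 4 Flox-labelled libraries exceeded the WT mean. Its log2FC of 0.06 had a 95% confidence interval of -0.02 to 0.13 (FDR 0.599). Plxna1 was at 101 ± 2.62 and 102 ± 4.84 CPM (SD, n = 4), with an interval of -0.06 to 0.10. Plxna2, which binds Sema3c in neural crest cells, was at 49.8 ± 1.90 and 49.4 ± 1.63 CPM (SD, n = 4), with an interval of -0.09 to 0.07. The intervals of these 3 class A plexins thus exclude a fall as large as that of Sema3a, whose interval ends at -0.35. The expected counts of Plxna1 were not whole in 100% of libraries and those of Plxna2 in 87.5%, so that some of their reads were divided with other genes, and 10.7% of the exonic bases of Plxna1 are also exonic in Gm26811 on the opposite strand.

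Levels between genes were compared as CPM per kilobase of exonic sequence. In WT the order was Plxnd1 (41.3 ± 1.62), Plxna1 (11.2 ± 0.290), Plxna4 (5.35 ± 0.125), Sema3d (3.94 ± 0.137) and Sema3f (3.30 ± 0.184). Plxna2 (2.90 ± 0.111), Sema3g (2.78 ± 0.248) and Sema3c (2.60 ± 0.310) followed, and then Sema3a (1.69 ± 0.103) and Sema3e (0.103 ± 0.0109; SD, n = 4 throughout). The ranges of Plxna2 and Sema3g overlapped, as did those of Sema3g and Sema3c, and the other neighbours were separate. In Flox-labelled libraries Sema3c (2.32 ± 0.187) stood above Sema3g (2.19 ± 0.258), with overlapping ranges, and no other place changed. The place of Sema3a depends on its annotated length. With the longest transcript (5930 bases) in place of all exonic bases (13868), its WT level was 3.95 CPM per kilobase, above Sema3c (3.38) and Sema3g (2.78).

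**Figure D4:**
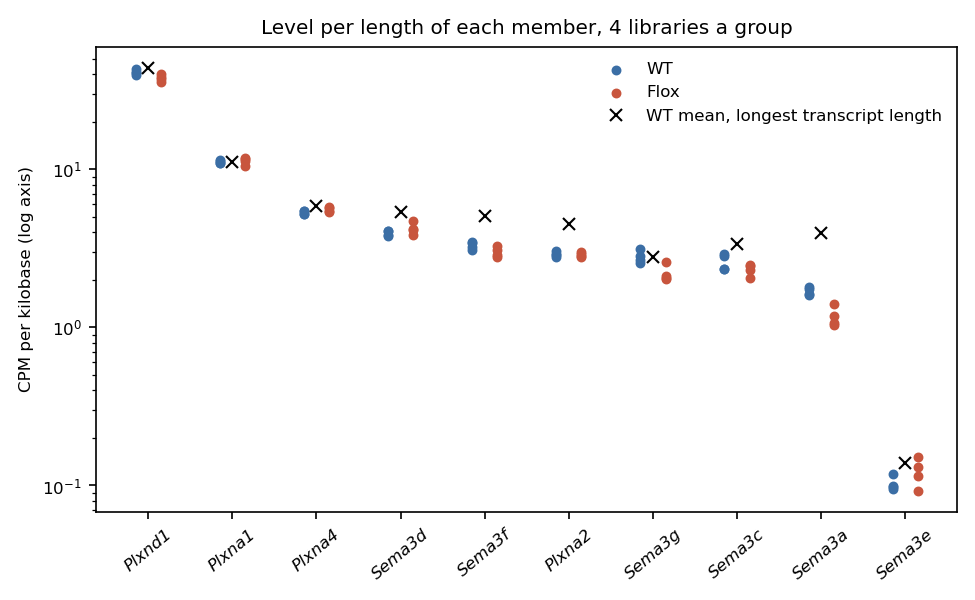
CPM per kilobase of exonic length (log axis) for the 10 genes in order of WT level, with 1 point for each of 4 libraries in each group and a cross for the WT mean per kilobase of the longest transcript. Plxnd1 lies highest at 41.3 and Sema3e lowest at 0.103 in WT, and the cross lies furthest above the points for Sema3a.

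The rest of the pathway was followed in 53 other genes, of which 51 were tested. None was called by edgeR's quasi-likelihood test, where 13 had an unadjusted p below 0.05, beside 10.5% of all tested genes. Groups did not overlap for 6 of the 51, beside 6.05% of all tested genes. With limma voom no pathway gene was called either. DESeq2 and the likelihood ratio test called 2 each (Furin and Sema7a). Over all genes those tests called 198 and 242, against 81 in the quasi-likelihood test. The median log2FC was -0.03, with 18 above and 33 below 0, beside 50.6% below 0 over all tested genes. Of the co-receptors, Nrp1, which binds Sema3a, held 180, 179, 174 and 183 CPM across WT libraries, against 194, 182, 185 and 198 CPM in Flox-labelled libraries. The groups overlapped by Flox-labelled library 2 alone (log2FC 0.09, 95% confidence interval 0.01 to 0.16, FDR 0.399). Nrp2 was at 58.8 ± 1.85 and 53.6 ± 3.73 CPM (SD, n = 4), with a log2FC of -0.14 (FDR 0.295). Furin, a protease that cleaves class 3 semaphorins, was at 138 ± 3.76 and 125 ± 5.46 CPM (SD, n = 4), with groups that did not overlap and a log2FC of -0.15 (FDR 0.1002). Sema3b, the class 3 ligand outside the set, was at 23.2 ± 0.845 and 20.5 ± 1.60 CPM (SD, n = 4), also without overlap (log2FC -0.18, FDR 0.274).

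The other plexins followed no common direction. Plxnc1, the receptor of Sema7a, had a log2FC of -0.21 (FDR 0.209), while Plxnb1 (0.04), Plxnb2 (0.04) and the scarce Plxnb3 (0.20) had FDR of 0.665 or more. Among 12 tested semaphorins of other classes, the membrane-anchored Sema7a had the lowest p. WT libraries held 23.8, 21.8, 28.7 and 23.9 CPM, against 21.4, 18.6, 19.6 and 20.01 CPM in Flox-labelled libraries, so its groups barely separated (log2FC -0.30, FDR 0.132). Sema6a (-0.15), Sema4d (-0.16) and Sema6d (-0.05) had FDR of 0.336 or more. Of 28 intracellular effectors, the small GTPase genes Rnd2 (-0.24, FDR 0.224) and Rras2 (0.12, FDR 0.254) had the lowest p. The groups of Rras2 did not overlap, with the Flox-labelled libraries higher. Sh3bp1 (0.11) and Gipc1 (0.08), an adaptor of neuropilin and plexins, had FDR of 0.397 and 0.428. Reads of Sh3bp1 and Rnd2 are less certain, since 61.5% and 11.4% of their exonic bases overlap another gene.

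**Figure D5:**
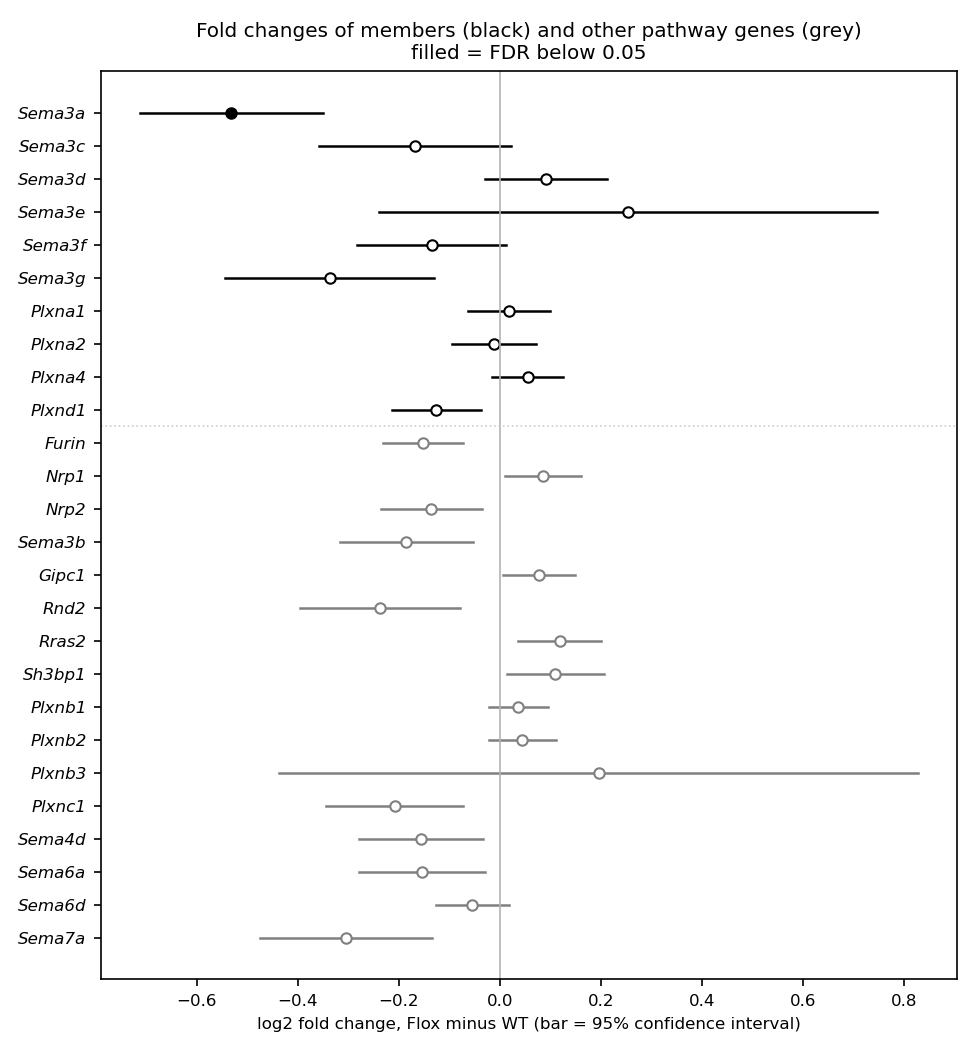
Log2 fold change (horizontal axis, Flox-labelled minus WT) with its 95% confidence interval for the 10 genes (black) and 16 other pathway genes (grey). Sema3a, at -0.53, is the filled point with FDR below 0.05, and the intervals of Plxna1, Plxna2 and Plxna4 lie within -0.09 to 0.13.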

How the data were processed

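PolyA RNA of 8 ventricle samples was sequenced. Deposited by the authors were expected counts for each Ensembl gene (RSEM estimates that divide shared reads), on GRCm38, with RSEM 1.3.1 and cutadapt per the processing notes. The aligner and strand setting are not given in the sources used here. Library totals ranged from 16761763 to 24144272. Intervals cover the spread between libraries.

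Counts were rounded, filtered with filterByExpr (15388 genes) and scaled with TMM. Groups were compared with edgeR 4.0.16 (glmQLFit, glmQLFTest, two-sided, group as the only term) in R 4.3.3, and p-values were adjusted after Benjamini-Hochberg across the tested genes (FDR below 0.05). CPM are scaled with TMM factors, and SE came from the F statistic. Names, positions and lengths came from GENCODE M21, which matched 53360 of 53465 identifiers. The counts carry the label of a different annotation release, so these lengths may differ from those of the gene models counted. The fit was tested on simulated data. Counts of 2 libraries of a group differed by more than sampling noise (lowest chi-square over its degrees of freedom 3.002).

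Alternatives were other scalings, filters, tests (likelihood ratio, DESeq2 1.42.0, limma 3.58.1 voom) and FDR thresholds, a replicate block, a Y-linked covariate, a GC and length correction (lowess span 0.3), and leaving out each library. The members and lists were chosen with earlier results of these data known. Named were all members, Nrg1, Nrp1, Nrp2, called pathway genes, the 4 with the smallest p in each pathway sublist, and the 3 genes most correlated with the called member, of which 1 is not reported here. List genes that were called are also named, chosen after their values were seen. The sublists were receptor partners, other plexins, other semaphorins and effectors. Marker lists not otherwise described are in the closing section. Figures were drawn with matplotlib 3.10.9.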

Additional observations from a re-analysis of the deposited data

Results flagged for a closer look

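Sema3g was at 11.7 CPM in Flox-labelled library 2, far from the 9.25 to 9.53 CPM of the other 3 libraries of that group. WT library 2 held 19.4 CPM of Sema6a, while the other 3 held 20.4 to 20.5 CPM. These were 2 of 54 groups of 4 libraries examined, where chance gives about 2.7. Without Flox-labelled library 2 the log2 fold change of Sema3g was -0.43, without passing (FDR 0.083).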

How the results depend on the processing

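Of 190 log2 fold changes of the 10 members under alternatives, 180 kept their direction and their side of the threshold. In 6, all of Sema3a, the call was lost as given above. The other 4 were sign changes of Plxna2 near 0 (0.0041 with the Y-linked covariate, and up to 0.012 when 1 library was left out). Its main value was -0.011, and leaving out each library in turn gave -0.032 to 0.012. The number of members called was 0 with the Y-linked covariate and 0 at FDR 0.01 (edgeR, with 2 and 3 members at an unadjusted p below 0.05), and 0 to 1 when 1 library was left out. It was 1 with DESeq2 and with limma voom. Pathway calls numbered 2 without a filter, 2 in the likelihood ratio test, 2 in DESeq2, and 0 to 1 without 1 library, where Furin passed without Flox-labelled library 4. Calls over all genes numbered 338 without a filter, 242 in the likelihood ratio test, 198 in DESeq2, 16 with the Y-linked covariate, 3 at FDR 0.01, 190 at FDR 0.1, and 11 (without Flox-labelled library 3) to 142 (without Flox-labelled library 4) when 1 library was left out. Nrg1 was higher in all alternatives (0.27 to 0.40) and passed in none. The cause of these shifts was not tested. Same-numbered libraries had correlated deviations of 0.0998, 0.0474, 0.0447 and 0.121. Each exceeded those of the 12 differently numbered pairs (at most 0.0195), a hint from the data and not from the design. The labels give a number but state no pairing, so the reported fit has no term for it. With the replicate block, Sema3a was at -0.53 (FDR 0.021) and 93 genes were called.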

Other observations

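Sema3f and Sema3b lie within 0.311 megabases of Cacna2d2 on chromosome 9 (107399612 to 107710475). Cacna2d2, a calcium channel subunit gene, was lower (log2 fold change -0.59, FDR 0.0059), as the 1 called gene of 16 tested there, beside -0.18 for Sema3b and -0.14 for Sema3f. Of the 16, 11 were below 0, with a median of -0.04. The stretch was chosen after the values were seen.

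The remaining marker lists held no called gene. Tcf21 was on both the fibroblast and mesenchyme list and the epicardial list. Of 8 smooth muscle genes 6 were lower (median -0.10), of 8 fibroblast and mesenchyme genes 6 were lower (median -0.06), of 8 macrophage genes 6 were higher (median 0.04), and of 7 tested erythroid genes 6 were higher (median 0.11).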
